A study of Mus musculus with 2 samples.

Results

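The RNAs described here are the low-abundance small RNAs of piRNA length that matched no annotated transcript in fetal mouse testis. They were chosen by a fixed rule: a length of 24 to 33 nt, no exact match on either strand to any GENCODE M21 transcript, and fewer than 100 reads in the WT and the KO library together. The rule took 483277 distinct sequences out of 1132769 in the series, which is 42.7% of all sequences and 70.5% of those of 24 to 33 nt. Of these members, 346583 were found in WT, with 606268 reads, and 183067 in KO, with 360517 reads. They made up 30.8% of the 24- to 33-nt reads in WT and 26.7% in KO. The WT library came from 20 pooled testes of C57BL/6 fetuses at E16.5, and the KO library from 20 pooled testes of the same strain and age lacking Hsp90α, a chaperone of the HSP90 family. Whole testes were used, so germ cells and somatic cells were sequenced together, and fewer cells of a type and less RNA per cell cannot be told apart. The libraries held 6409305 WT and 5589326 KO reads, of which 2523084 and 2561491 matched miRNA hairpins. Levels are given as RPM, reads per 1000000 miRNA-hairpin reads, and the KO/WT ratio is the quotient of the 2 levels. There was 1 library per genotype. Members match no transcript, so they check neither the deletion of Hsp90α nor the labelled tissue. All intervals are 95% intervals for the sampling of reads, and they compare these 2 libraries, not the genotypes.

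PIWI-interacting RNAs (piRNAs) guide PIWI proteins to transposon transcripts in germ cells. In fetal male germ cells they are bound by MILI and MIWI2, with MILI holding the shorter and MIWI2 the longer ones. Primary piRNAs tend to start with uracil. When a PIWI protein cuts a complementary RNA, the cut falls opposite the tenth base of the guide, so a secondary piRNA made in this ping-pong cycle tends to carry adenine at the tenth position (10A) and shares a 10-nt 5′ overlap with its partner on the opposite strand. Cellular RNAs such as tRNA and rRNA are also cut into fragments of this length, and neither nuclear tRNA genes nor a genome sequence were among the references used here.

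The sequences below show the kinds of RNA that the rule brought together. The first 3 are near-matches to repeats, each placed with 1 mismatch on transcripts of 16 to 26 genes on both strands, and they were among the 5 most-read members of that kind. Capitals mark the first and the tenth base.
Repeat variant, 26 genes including Bora: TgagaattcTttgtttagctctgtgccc
Repeat variant, 25 genes including D10Wsu102e: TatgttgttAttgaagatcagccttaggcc
Repeat variant, 16 genes including Efr3a: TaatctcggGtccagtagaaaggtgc
The first was read 51 times in WT and 16 times in KO (ratio 0.309, 0.164 to 0.551), and the second 42 and 12 times (0.281, 0.135 to 0.545). The third, with 32 and 21 reads, had an interval that included 1 (0.646, 0.354 to 1.16). All 5 of these most-read repeat variants began with uracil, and the intervals of 4 of the 5 lay below 1.

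A different kind of member holds the letters GTTCGANNC, the core of the B box, the internal promoter element of tRNA genes. The 2 most-read members of at most 30 nt with this core are shown with the core in capitals.
B box member 1: gggagaccgggGTTCGATTCcccgacgggg
B box member 2: ggGTTCGATTCccggtcagggaacca
The first had 21 WT and 37 KO reads (ratio 1.74, 0.990 to 3.12) and the second 13 and 16 (1.21, 0.547 to 2.74). Neither begins with uracil, and neither interval lay below 1. The core was present in 958 of the 483277 members (0.198%), with 1088 WT and 1010 KO reads and a ratio of 0.914 (0.839 to 0.997). It was present in 0.105% of the 24- to 33-nt sequences with an exact transcript match and in 0.345% of the unmatched sequences with 100 reads or more, and in 1.34% of structural RNA fragments. Its reverse complement was present in 0.120% of the members. The 227 members that held the core and also ended in CCA, the 3′ end added to mature tRNAs, had a ratio of 1.14 (0.965 to 1.34), and first uracil was found in 7.74% of their KO reads.

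Taken as 1 set, the members had 240288 RPM in WT and 140745 in KO, a KO/WT ratio of 0.586 (0.583 to 0.588). For RNAs of the same lengths with an exact transcript match, miRNA and structural RNA left out, it was 0.480 (0.477 to 0.483). The unmatched members were thus less reduced than the matched RNAs, by a quotient of 1.22 (1.21 to 1.23, Woolf interval). When each distinct sequence was counted once per library the quotient was 0.919, so the direction depended on how reads were counted. Fragments of annotated structural RNAs (rRNA, snRNA, snoRNA and the like) had a ratio of 0.874 (0.864 to 0.883). On either side of the limit on reads, 226 members with 90 to 99 reads had a ratio of 0.797 (0.776 to 0.819) and first uracil in 24.6% in WT, and 182 unmatched sequences just outside it had 0.749 (0.728 to 0.771) and 27.9%.

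The reduction differed with length. Members of 24 nt fell least, from 19431 to 17146 RPM (ratio 0.882, 0.871 to 0.894). The ratio was 0.758 at 25 nt, 0.603 at 26 nt and 0.548 at 27 nt, the most frequent length in both libraries, where 38124 RPM in WT stood against 20909 in KO. It was lowest at 29 nt, with 31334 against 15236 RPM and a ratio of 0.486 (0.480 to 0.492). Beyond this length the ratio was 0.530 at 30 nt, 0.581 at 31 nt, 0.568 at 32 nt and 0.520 (0.510 to 0.531) at 33 nt. Grouped by the lengths typical of the 2 PIWI proteins, members of 24 to 27 nt had a ratio of 0.663 (0.660 to 0.667) and those of 28 to 32 nt 0.519 (0.516 to 0.523), a quotient of 0.783 (0.776 to 0.789). The longer class was also the more reduced one among transcript-matching RNAs (quotient 0.835, 0.825 to 0.845) and among structural RNA fragments (0.832, 0.814 to 0.850). Divided by the quotient of the structural fragments, that of the members was 0.941 (0.919 to 0.964). As a result the KO members were shorter, with a mean of 27.6 nt against 27.9 nt in WT, and 24-nt RNAs made up 12.2% of them against 8.09%.

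Uracil was the most frequent first base of the members, in 51.7% of the WT members' reads (Wilson interval 51.6 to 51.8) and 40.98% of those in KO (40.82 to 41.14). This share was 10.7 points lower in KO (interval of the difference -10.9 to -10.5), and the difference was -2.47 points with no upper limit on reads. It was 26.0% and 25.9% in structural RNA fragments, and 67.2% and 64.8% in transcript-matching RNAs. Cytosine was the base most raised in its place, first in 21.6% of the reads in WT and 28.5% in KO. First uracil also differed with length. It was found in 36.01% of 24-nt WT reads, in 64.7% at 27 nt and in only 24.9% at 33 nt, close to the structural fragments. In KO it was below WT at each of the 10 lengths, with 32.3% at 24 nt, 52.6% at 27 nt and 23.96% at 33 nt, where the intervals of the 2 libraries overlapped.

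Adenine at the tenth position, the mark of secondary piRNAs, was found in 28.5% of the reads in WT (28.4 to 28.6) and 24.4% in KO (24.3 to 24.6), a difference of -4.09 points (-4.27 to -3.91), which was -0.458 with no upper limit on reads. The structural fragments had 24.7% and 23.4%, and the transcript-matching RNAs 41.3% and 38.2%. The share of the KO members was thus below the 25% of equal base use, whereas that of the WT members was above it. Beside the other positions both were raised: the median share of adenine over positions other than 1 and 10 was 23.8% in WT and 22.1% in KO. By length the peak lay at 29 nt, where 37.0% in WT (36.6 to 37.3) and 31.5% in KO (31.0 to 31.9) had 10A. At 24 nt the shares were 20.0% and 18.5%, and at 33 nt 21.2% and 19.3%. First uracil was thus most frequent at 27 nt and 10A at 29 nt, in both libraries.

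The whole set held groups that differed from each other. After these values had been seen, the members were divided by what else they resembled. Those that share at least 20 nt with an unmatched sequence of 100 reads or more, or that resemble a structural RNA or a miRNA hairpin with 1 or 2 mismatches or an added tail, are called variant members. All others are called stand-alone members. The name says only that these criteria were not met. The stand-alone set includes near-matches to other transcripts, 89552 of fewer than 10 genes and 22569 of 10 or more. It also includes B box member 2 and members that overlap each other. There were 407919 stand-alone members, with 390311 WT and 187076 KO reads, and 75358 variant members, with 215957 and 173441 reads. Variant members were thus a small part of the sequences but 35.6% of the WT and 48.1% of the KO reads of the set.

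The stand-alone members had a KO/WT ratio of 0.472 (0.470 to 0.475) and the variant members 0.791 (0.786 to 0.796), a quotient of 0.597 (0.592 to 0.602). First uracil was found in 66.0% of WT and 54.3% of KO reads of the stand-alone members, but in 26.0% and 26.6% of the variant members. This pooled share was near that of structural fragments, while the variant classes ran from 21.2% to 55.3% in WT. Adenine at position 10 was found in 32.3% and 27.7% of stand-alone reads and in 21.7% and 20.9% of variant reads. Against transcript-matching RNAs with fewer than 100 reads (ratio 0.479), the quotient of the stand-alone members was 0.985 (0.976 to 0.993). The difference between the whole set and the matched RNAs was therefore not present when variant members were left out, and its sign was the opposite.

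Stand-alone members of different lengths differed more than the whole set. Their ratio fell from 0.804 (0.788 to 0.821) at 24 nt through 0.618 at 25 nt and 0.487 at 26 nt to 0.384 (0.378 to 0.390) at 29 nt. It was 0.422 at 30 nt, 0.491 at 31 nt, 0.501 at 32 nt and 0.488 at 33 nt. The reduction was therefore deepest in the middle of the range, and 29-nt members were reduced more than 24-nt members by a quotient of 0.478 (0.466 to 0.490). First uracil peaked at 74.8% of WT and 66.3% of KO reads at 27 nt, and 10A at 40.4% and 35.4% at 29 nt. The variant members showed no such minimum: their ratio was 0.943 (0.927 to 0.959) at 24 nt, 0.878 at 27 nt, 0.771 at 29 nt and 0.613 at 32 nt, and lowest, at 0.536 (0.523 to 0.549), at 33 nt.

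Base use along the stand-alone members showed a few positions that stood apart from the rest. In WT, uracil made up 66.0% of reads at position 1 and 20.4% to 26.2% at each other position from 2 to 24 except position 10, where it was 20.7%. Adenine was found in 9.996% at position 1 and had its highest share at position 5 (35.0%), followed by position 10 (32.3%) and position 2 (31.6%), beside a median of 24.7% over the positions other than 1 and 10. The tenth position was thus not the one richest in adenine. In KO the same 3 positions led, with 31.2% at position 5, 28.2% at position 2 and 27.7% at position 10. Cytosine was the most frequent last base of the stand-alone members, with 35.8% in WT and 36.4% in KO, and guanine the rarest in WT (16.6%). Variant members lacked uracil and adenine peaks of this size. In WT their most frequent first base was cytosine (31.9%), and guanine made up 27.8% to 33.8% of each position from 2 to 24. Cytosine was also their most frequent last base, with 32.97% in WT. The same held for structural RNA fragments (34.14%) and transcript-matching RNAs (35.22%), so the cytosine at the 3′ end was not particular to stand-alone members.

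Both marks went together with the size of the reduction. Among stand-alone members, RNAs with first uracil and 10A had a ratio of 0.365 (0.360 to 0.370) and those with first uracil alone 0.399 (0.396 to 0.403). RNAs with 10A alone had 0.478 (0.471 to 0.486) and RNAs with neither 0.713 (0.706 to 0.720). The quotient of the ratios with and without first uracil was 0.613 (0.606 to 0.620), and that with and without 10A 0.804 (0.794 to 0.814). In the variant members the 4 combinations were closer together, from 0.733 (0.714 to 0.752) with both marks to 0.836 (0.824 to 0.848) with first uracil alone. In WT, 10A was found in 31.6% of the stand-alone reads with first uracil and in 33.7% of those with another first base. In KO these shares were 29.7% and 25.4%, so that the order was the opposite.

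The near-matches to repeats carried 10A most often of all classes. Members placed with 1 or 2 mismatches on transcripts of 10 or more genes (22569 sequences, 21701 WT and 7711 KO reads) had the lowest ratio of the classes, 0.350 (0.341 to 0.359). Their first base was uracil in 70.4% (WT) and 71.3% (KO), and the tenth base was adenine in 47.0% (46.3 to 47.6) and 45.5% (44.4 to 46.7). First uracil was therefore not lower in KO in this class, unlike in the whole set. Members placed in the same way on transcripts of fewer than 10 genes (89552 sequences) had a ratio of 0.402 (0.397 to 0.407), first uracil in 70.5% and 67.8%, and 10A in 41.9% and 39.3%. The 292586 members with no placement at all, 45.7% of the WT reads of the set, had a ratio of 0.504 (0.501 to 0.508) with first uracil in 64.0% and 49.8% and 10A in 28.1% and 23.8%. Repeat near-matches were reduced more than unplaced members by a quotient of 0.694 (0.676 to 0.713).

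The variant classes were less reduced. Members that share 20 nt with an abundant unmatched RNA (55811 sequences, 178223 WT and 138832 KO reads) had a ratio of 0.767 (0.762 to 0.773) and first uracil in 21.2% of reads of either library. Near-matches to structural RNAs (6976 sequences) had a ratio of 0.865 (0.837 to 0.894) first uracil in 22.7% and 24.4%, and 10A in 27.5% and 26.6%, close to the unplaced members in WT and above them in KO. Members that resemble miRNA hairpins (12571 sequences, 29915 and 27743 reads) had 0.913 (0.899 to 0.929). Their first base was uracil in 55.3% (WT) and 54.4% (KO), more than in the other variant classes. Adenine at position 10 was found in 18.9% and 17.5% of these.

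Most members were seen a single time. Of the 483277, 408156 (84.5%) had 1 read in the 2 libraries together, and 46373 were read in both libraries, which is 13.4% of the WT and 25.3% of the KO members. Among all 685333 distinct sequences of 24 to 33 nt, 493591 were read in WT and 271666 in KO. Most of those were thus also read in 1 library only, and the limited overlap is not particular to the members. Among the members read once, 278577 came from WT and 129579 from KO (ratio 0.458, 0.455 to 0.461), and 65.9% and 55.6% of them began with uracil. First uracil grew rarer with abundance, to 55.8% and 45.2% of reads at 3 to 4 reads, 36.2% and 31.0% at 10 to 19, and 28.1% and 26.0% at 50 to 99. The stand-alone share of the sequences moved along with it, from 88.2% of the members read once through 54.1% at 5 to 9 reads to 14.2% at 50 to 99. Within the stand-alone members first uracil still differed between these bins, with 69.9% of WT and 60.8% of KO reads at 1 read, 43.9% and 33.1% at 20 to 49 reads and 50.8% and 37.8% at 50 to 99.

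Single sequences could be compared where they had at least 10 reads, which 12970 members (2.68%) had. Among all 24- to 33-nt sequences with 10 to 99 reads, the background share with a KO/WT ratio of 0.5 or lower was 33%, and with a ratio of 2 or higher 3.58%. Of the members, 3279 (25.3%) were at 0.5 or lower, below that background, and 555 (4.28%) at 2 or higher. The stand-alone members with enough reads were close to the background, with 1452 of 4045 (35.9%) at 0.5 or lower and 169 (4.18%) at 2 or higher. Of the 8925 variant members, 1827 (20.5%) were at 0.5 or lower and 386 (4.32%) at 2 or higher. The median ratio of single members was 0.747, beside 0.682 over all such sequences, 0.657 in the stand-alone and 0.788 in the variant members. A single sequence of 10 reads has a wide counting interval, so these counts describe the spread of the values.

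The 3 members with the lowest and the 3 with the highest ratios were chosen for their ratio among the 249 members of at most 30 nt that had 50 or more reads and a placement on a transcript, and their values are a description. Capitals again mark the first and the tenth base.
Low, 1 mismatch to 4 genes including Gm9864: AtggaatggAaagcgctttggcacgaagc
Low, 1 mismatch to 1700120G11Rik: TtctactggAtctctggagcaagcct
Low, 1 mismatch to 2 genes including Gm42047: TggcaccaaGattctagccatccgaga
High, 2 mismatches to 2 genes including Gm12895: CggggcggcGggtccaaccccgcgggg
High, 1 mismatch to Mir10b: TaccctgtaGaaccgaatttgagt
High, 1 mismatch to Lars2: CagtacgaaTacagaccgtgaaagcggg
The lowest, near Gm9864, had 43 WT and 8 KO reads (ratio 0.183, 0.0744 to 0.394) and begins with adenine. The next was placed with 1 mismatch on the lincRNA gene 1700120G11Rik (GRCm38, chr4:14219496-14237450, minus strand), in the sense of its transcript. It had 51 WT and 11 KO reads (ratio 0.212, 0.0998 to 0.413). The member near Gm42047 had 61 and 14 reads (0.226, 0.117 to 0.409). These last 2 begin with uracil, and all 3 of the low members are stand-alone members. The highest, near Gm12895, had 10 WT and 43 KO reads (4.24, 2.10 to 9.45), begins with cytosine and shares 20 nt with an abundant unmatched RNA. The Mir10b sequence matches the miRNA hairpin with 1 mismatch, which lies in its last 3 bases, and had 13 WT and 40 KO reads (3.03, 1.59 to 6.18). The sequence with 1 mismatch to Lars2 had 20 and 42 reads (2.07, 1.19 to 3.72) and likewise shares 20 nt with an abundant unmatched RNA. Whether the near-matches to 1700120G11Rik and Lars2 came from these genes was not determined, since no genome sequence was among the references. All 3 of the high members are variant members. Most of the 249 were variant members too: 151 resembled miRNA hairpins, 38 shared 20 nt with an abundant unmatched RNA and 13 were near structural RNAs. The stand-alone ones were 43 near-matches to transcripts of fewer than 10 genes and 4 to transcripts of 10 or more. The classes of these few sequences therefore show no link between class and direction.

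Members overlapped each other in 2 ways. Many shared a 5′ end: 148560 members (30.7%) fell into 41952 groups of at least 2 lengths with the same first 24 nt. Others were shifted, with at least 21 nt in common with another member at a different position on the same strand. This was the case for 50.5% of the members, and for 94.4% of the variant members. Overlap of 21 nt or more with a member of the opposite strand was rarer, at 11.2%, with 11.7% of the stand-alone and 8.45% of the variant members. Nearly all variant members thus overlapped another member on the same strand, while 42.4% of the stand-alone members did. Of the 75358 variant members, 55811 were classed by sharing 20 nt with an abundant unmatched sequence. Overlap among them is thus partly built into the class, and the contrast is no separate result. Where the base after the 3′ end could be read from another member, in 90088 stand-alone members, it was uracil in 25.5%, beside 23.5% at positions 2 to the end of the members themselves.

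Overlap chains were then built without a genome, as unbranched runs of 21-nt words shared between members. This gave 22048 chains with at least 2 different 5′ ends, holding 66739 members (13.8%). A further 39.9% of the members crossed a branch point, where a word continued in more than 1 way, and 46.3% lay alone. Chains were short, with a median of 32 nt and 2 members, and the longest, of 80 nt, held 23 members with 37 WT and 21 KO reads. Nearly all members on chains, 65483 of 66739, were stand-alone members, which were 407919 of all 483277 members. Chains held 16.1% of the stand-alone and 1.67% of the variant members. Runs end at branch points, so the method itself may leave out members with many close variants. The values on chains are therefore almost only those of stand-alone members. On chains the KO/WT ratio was 0.416 (0.410 to 0.422), first uracil was found in 72.1% (WT) and 63.9% (KO), and 10A in 33.7% and 29.7%.

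Chains with both strands were a minority, 3054 of 22048 (13.9%), and their RNAs carried both marks often. Their 10167 members had 9679 WT and 3312 KO reads (ratio 0.337, 0.324 to 0.351). First uracil made up 75.0% in WT (74.1 to 75.8) and 75.4% in KO (73.9 to 76.8), and 10A 40.1% (39.2 to 41.1) and 37.0% (35.4 to 38.6). Both intervals of first uracil overlapped, so that in these chains, as in the repeat near-matches, no lower share was seen in KO.

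On these chains a 10-nt 5′ overlap between opposite strands was more frequent than the overlaps next to it. Weighted by WT reads, 161 of 3099 pairs with an overlap of 1 to 23 nt (5.20%) were at 10 nt, beside 28 (0.904%) at 9 nt and 49 (1.58%) at 11 nt. By KO reads 23 of 421 pairs (5.46%) were at 10 nt, beside 0.238% at 9 nt and 0.9501% at 11 nt. Overlaps of 18 to 23 nt were still more frequent, up to 15.04% in WT. Chains are built from shared 21-nt words, so partners overlapping by 21 nt or more are joined directly. Partners with a shorter overlap are joined only through other members. The 10-nt share thus stood above its neighbours, but its rank beside the longest overlaps cannot be read from chains. An example is a pair placed with mismatches on the lincRNA gene Gm30948 (GRCm38, chr12:115262684-115287908, plus strand). Whether the pair came from this gene was not determined. The 10 overlapping bases are in capitals.
Gm30948, sense strand, 1 mismatch: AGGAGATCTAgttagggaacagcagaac
Gm30948, antisense strand, 2 mismatches: TAGATCTCCTttcagtttgttccaa
The sense member was read 6 times and the antisense member once, both in WT, and neither was read in KO. It is 1 of 35 such pairs with a partner placed on a transcript, and none of the 3 with the most reads in the smaller partner exceeded 2 reads there.

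Positions on the genome could be given for members lying exactly within RefSeq promoter windows, which are short stretches around the start of a gene, most of them upstream of it (GRCm38.p6). These windows were examined after the other values had been seen. Members were found in 2443 of 32851 windows, 4800 members in all, with 5617 WT and 2505 KO reads (ratio 0.439, 0.419 to 0.461). First uracil was found in 71.1% of WT and 64.0% of KO reads, 10A in 32.5% and 28.7%. Outside chromosomes 8 and 18, 17 windows had 100 or more reads, and the interval of the ratio lay below 1 in all 17. Only 6 of them held no member that also lay in another window, with ratios from 0.290 to 0.810. A window says where the letters lie and not which gene start, if any, the RNA came from.

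The 3 windows with the most reads, 2 starts of Gm35279 on chromosome 13 and 1 of Gm41501 on chromosome 16, hold copies of the same sequence, and 115 of the 116 members in the Gm41501 window also lay in another window. The Gm35279 window with more members had 423 WT and 143 KO reads (ratio 0.333, 0.274 to 0.403), first uracil in 72.6% and 10A in 46.6% of WT reads. The best-covered window without variant members was that of Gm33649 (chr19:22475208-22475507, plus strand). Its 79 members had 231 WT and 68 KO reads (ratio 0.290, 0.218 to 0.382), with first uracil in 76.2% and 77.9%. The gene strand held 207 of the WT reads and the opposite strand 24. The most-read member and a partner on the other strand overlap by 10 nt at their 5′ ends, shown in capitals.
Gm33649, chr19:22475427-22475454, plus strand: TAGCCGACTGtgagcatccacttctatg
Gm33649, chr19:22475409-22475436, minus strand: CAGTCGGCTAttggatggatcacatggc
The plus-strand RNA was read 70 times in WT and 18 times in KO, and its partner 1 time in each. The plus-strand RNA begins with uracil. In an exact 10-nt overlap this fixes adenine at position 10 of the partner, so that adenine is not a separate mark. The overlap is the one described above for ping-pong partners. A 29-nt form of the plus-strand RNA added 29 and 8 reads.

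The window of Gm11274 (chr13:21767879-21768178, plus strand) was read mainly from the opposite strand, with 161 of its 176 WT reads there. Its ratio was 0.241 (0.168 to 0.338) and 93.8% of WT reads began with uracil. In contrast, the windows of Gm46404 (chr13:23445922-23446221, minus strand) and BC107364 (chr3:96452257-96452556, minus strand) had ratios of 0.799 (0.672 to 0.949) and 0.810 (0.662 to 0.991) with first uracil in 38.1% and 8.18% of WT reads. Of their 38 and 61 members, 30 and 52 were variant members. The leading member of each window shows the difference, with capitals at the first and the tenth base.
Gm11274, chr13:21767910-21767938, minus strand: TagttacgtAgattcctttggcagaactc
Gm46404, chr13:23446185-23446214, minus strand: GtttccgtaGtgtagtggttatcacgttcg
BC107364, chr3:96452495-96452523, plus strand: GccgtgatcGtatagtggttagtactctg
The Gm11274 member had 19 WT and 4 KO reads and carries both marks. The Gm46404 member had 57 and 38 reads and the BC107364 member 20 and 22, and both begin with guanine.

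With genome positions the 10-nt overlap could be counted without chains. Among 4054 members with a single position in the windows, 314 of 1724 read-weighted WT pairs (18.2%) overlapped by 10 nt, beside 0.812% at 9 nt and 3.94% at 11 nt. The pair at Gm33649 gave 210 of them, and without it the share was 6.87%, below the 13.1% at 23 nt. In KO 37 of 347 weighted pairs (10.7%) were at 10 nt, 27 of them from the same pair, and 3.13% without it. When each pair of 5′ ends was counted once, 29 of 388 pairs (7.47%) overlapped by 10 nt, beside a mean of 4.21% over the other overlaps, and 23 nt had the same number. The 10-nt overlap was therefore above its neighbours in WT, while its weight in reads rested on 1 site.

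Short RNAs complementary to the 3′ part of members were found at the lengths that cleavage 10 nt from a guide's 5′ end leaves. For 29-nt members these were RNAs of 19 nt, with 705 WT and 516 KO reads (0.590% and 0.452% of all 19-nt reads, ratio 0.721, 0.642 to 0.809). The same 19-nt RNAs were less often complementary to members of other lengths, with 313 WT reads for 28-nt and 63 for 30-nt members. For 26-nt members, RNAs of 16 nt had 641 WT and 387 KO reads (ratio 0.595, 0.523 to 0.676), beside 383 WT reads for 28-nt, 274 for 30-nt, 188 for 27-nt and 129 for 25-nt members. A 10-nt difference was not the leading one for every length: RNAs of 20 nt had 43 WT reads with 30-nt members and 247 with 28-nt members. RNAs of 17 nt, with 1708 WT and 2193 KO reads, had a ratio above 1 (1.26, 1.19 to 1.35) with 27-nt members, and also with 25-nt members (1.40, 1.30 to 1.50).

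Members that match a miRNA hairpin exactly up to their last 1 to 5 bases were little reduced. These bases were counted from the first mismatch to the 3′ end. From 2 bases on, inner mismatches followed by matching bases are therefore counted together with added tails. Members with 1 such base had 4069 WT and 4088 KO reads (ratio 0.990, 0.947 to 1.03). Those with 2, 3 and 4 had ratios of 0.973, 0.968 and 0.961, all with intervals that included 1. With 5 such bases the ratio was 0.824 (0.777 to 0.874). Where only the last base was unmatched, it was adenine in 40.7% of the WT and 41.5% of the KO reads, and uracil in 40.9% and 38.6%. Cytosine (11.6% and 12.5%) and guanine (6.81% and 7.36%) were rarer in both libraries.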

How the data were processed

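The authors clipped the adaptor from 50-bp single-end reads (TruSeq Small RNA, MiSeq) and deposited, for each library, the raw read count of every distinct sequence of 11 to 48 nt, with no normalization. An exact match to either strand of the 141767 GENCODE M21 transcripts (GRCm38) was sought for each sequence. Sense matches of at least 16 nt inside a miRNA hairpin gave the normalizing total. Unmatched sequences of 24 to 33 nt with fewer than 100 reads were placed with bwa 0.7.19 at up to 2 mismatches without gaps, and searched exactly in RefSeq promoter windows. The members and the lists were chosen with earlier results of these data known. Printed sequences were chosen by read count or ratio within classes. The window examples, the division into stand-alone and variant members and the windows themselves were chosen after values had been seen.

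Ratios have Clopper-Pearson intervals (exact conditional binomial test), quotients Woolf intervals (Fisher's exact test), shares Wilson intervals (exact binomial test against 25%) and differences Newcombe intervals. A share of 0 would allow up to 3 reads, 4.68e-05% of the WT and 5.37e-05% of the KO library. PCR copies are not separated, so the intervals cover counting error only. With 1 library per genotype no model across replicates was fitted. Chains are unbranched runs in a graph of 21-nt words. On 2000 simulated draws the true KO/WT ratio lay within its interval in 94.6%. Alternatives changed the normalizing total, the limits on reads, reads against distinct sequences, mismatches, composition and word length. The tools were numba 0.67.0, scipy 1.17.1, pandas 2.3.3 and numpy 2.4.6 on Python 3.11.15. The study mapped reads with SeqMap, but the deposited tables hold sequences and counts only, with no mapping.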

Additional observations from a re-analysis of the deposited data

How the results depend on the processing

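The KO/WT ratio of the members stayed below 1 under each alternative, from 0.350 to 0.694, and the quotient of the 28- to 32-nt over the 24- to 27-nt class from 0.717 to 0.941. The quotient of members over transcript-matching RNAs changed side, from 1.22 to 0.919 with each distinct sequence counted once, to 0.983 without the variant members and to 0.729 for near-matches to transcripts of 10 or more genes alone (the last 2 were added after seeing the data). Distinct sequences depend on library depth, and the variant members hold more reads a sequence. The first uracil difference, -10.7 points, was 0.896 points in those repeat near-matches, with an interval that included 0, -6.85 points with at least 2 reads and -2.47 with no upper limit on reads. The 10A difference, -4.09 points, was -0.458 with no upper limit and -1.43 in repeat near-matches. The 10A share of KO members, 24.4%, was above 25% with distinct sequences (27.6%), with fewer than 10 reads (27.05%), without variant members (27.7%) and in repeat near-matches (45.5%). That of WT members, 28.5%, was 22.1% with no upper limit on reads, which adds 2030 abundant sequences. The cause was not tested.

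The share of reads on chains, 10.6% in WT and 7.52% in KO, was 9.13% and 6.02% with 19-nt words, 12.1% and 9.31% with 23-nt words, 18.7% and 17.96% with at least 2 reads and 14.3% and 12.3% over distinct sequences. The 10-nt share of overlaps, 5.20% in WT and 5.46% in KO, was 8.40% and 4.32% with 19-nt words, 3.05% and 3.37% with 23-nt words and 4.15% in WT over distinct sequences. Over overlaps of 1 to 20 nt only, an alternative added after seeing the data, it was 9.14% and 9.91%. No paired analysis was possible because each genotype has 1 library, and no replicate could be left out. With 84.5% of members read once, the overlap between libraries is limited by depth.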

Other observations

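In the promoter windows, a 5′ end directly after the 3′ end of another member on the same strand was found at 33 places, beside 21 to 39 places for each distance from 2 to 20 nt. A peak at that distance, which piRNAs cut one after another from a precursor would give, was not seen at this depth.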
